A study of Homo sapiens with 3 samples.

Results

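Histone cluster genes code for the linker histone H1 and the core histones H2A, H2B, H3 and H4, and stand together in the genome in groups named HIST1 to HIST4. They were taken as every row of the expression table whose gene name starts with HIST1H, HIST2H, HIST3H or HIST4H and does not hold the letters PS. This gave 76 of 50867 genes: 6 of type H1, 17 of H2A, 23 of H2B, 15 of H3 and 15 of H4. Of these, 55 belong to HIST1 on chromosome 6, 16 to HIST2 and 4 to HIST3 on chromosome 1, and 1 to HIST4 on chromosome 12. GENCODE lists 70 as protein coding. The other 6 are pseudogenes, 1 of them (HIST2H2BC) by the description in the deposited table.

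RNA sequencing compared 3 libraries made from the human bladder cancer line UM-UC-3 to find genes that depend on BLACAT2, a long non-coding RNA. The shBLACAT2 group (n = 2) had a lentiviral short hairpin RNA against BLACAT2, with 1 library for the hairpin shRNA 1 (replicate 1) and 1 for the hairpin shRNA 2 (replicate 2). The shControl group (n = 1) had a lentiviral scramble hairpin. All cells were infected, were kept under puromycin for 2 weeks, and gave polyA+ RNA for a stranded mRNA kit. The labels do not say that the libraries came from separate cultures.

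Most histone cluster genes are replication-dependent: they are transcribed in S phase, have no introns, and give messages that end in a conserved stem-loop in place of a poly(A) tail. The stem-loop binding protein SLBP holds that structure, and a U7 small nuclear ribonucleoprotein guides the cut just after it. Some of these genes also give longer messages with a poly(A) tail, in particular in cells that leave the cycle or differentiate. A library made from polyA+ RNA takes up such tailed messages and whatever untailed RNA is carried along, so the values below are levels of tailed or carried-over histone RNA and not of all histone message.

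The stem-loop is shown here because it is the mark of an untailed histone message and because many of the genes that lead the results below keep it inside a longer annotated transcript. A 16-base stem-loop (6 paired positions on each side of 4 loop bases) was found in 33 of the 76 genes in GENCODE release 29 transcripts that lie inside the deposited locus. In these DNA letters, 5′ to 3′, capitals mark the stem. The form of 18 genes of types H2A, H2B and H3, HIST3H2A, HIST3H2BB and HIST1H2AC among them, comes first. The next is that of 5 genes, with HIST1H2BD and HIST1H3G, followed by that of 5 H4 genes, with HIST1H4H and HIST4H4. The fourth is shared by the H4 genes HIST1H4I, HIST2H4A and HIST2H4B, and the last by HIST1H2AG and the pseudogene HIST2H2BD.
H2A, H2B and H3 form: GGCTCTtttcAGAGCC
Loop variant with a: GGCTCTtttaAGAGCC
H4 form: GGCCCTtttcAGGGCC
H4 loop variant: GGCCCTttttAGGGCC
Mixed stem: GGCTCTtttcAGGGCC

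The start-site windows of 4 genes follow, since they belong to genes at least 2-fold higher in both hairpin libraries. They come from RefSeq (GRCh38.p14) and run from 250 bases before to 50 bases after the start, written on the gene's own strand. Capitals mark the CCAAT box, the TATAAA element and the octamer ATTTGCAT, each searched on both strands. HIST3H2A lies on the minus strand (chr1:228457824-228458123), HIST1H2AC on the plus strand (chr6:26123922-26124221), HIST1H2BO on the plus strand (chr6:27893175-27893474) and HIST2H4B on the minus strand (chr1:149861110-149861409).
HIST3H2A: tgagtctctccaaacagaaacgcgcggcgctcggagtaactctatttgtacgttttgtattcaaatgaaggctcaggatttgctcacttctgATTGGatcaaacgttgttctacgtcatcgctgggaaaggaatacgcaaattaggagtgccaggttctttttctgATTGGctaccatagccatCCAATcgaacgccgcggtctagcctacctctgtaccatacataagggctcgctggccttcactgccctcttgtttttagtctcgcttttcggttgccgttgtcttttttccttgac
HIST1H2AC: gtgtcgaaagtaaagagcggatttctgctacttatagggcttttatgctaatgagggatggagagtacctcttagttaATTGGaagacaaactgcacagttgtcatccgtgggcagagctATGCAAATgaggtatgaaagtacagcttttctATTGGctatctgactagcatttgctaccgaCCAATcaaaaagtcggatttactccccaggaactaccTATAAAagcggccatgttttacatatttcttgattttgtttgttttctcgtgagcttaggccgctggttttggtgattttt
HIST1H2BO: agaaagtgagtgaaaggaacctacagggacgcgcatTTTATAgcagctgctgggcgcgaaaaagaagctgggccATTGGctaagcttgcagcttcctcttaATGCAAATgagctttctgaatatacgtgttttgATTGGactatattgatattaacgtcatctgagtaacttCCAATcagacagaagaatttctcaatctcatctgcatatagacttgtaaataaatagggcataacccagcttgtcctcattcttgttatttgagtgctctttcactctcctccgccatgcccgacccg
HIST2H4B: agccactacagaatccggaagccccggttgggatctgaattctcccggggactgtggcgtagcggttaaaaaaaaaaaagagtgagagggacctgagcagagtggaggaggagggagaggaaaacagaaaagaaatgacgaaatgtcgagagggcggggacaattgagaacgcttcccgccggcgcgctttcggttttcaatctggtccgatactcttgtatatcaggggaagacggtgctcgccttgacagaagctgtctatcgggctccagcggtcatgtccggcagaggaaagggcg
The CCAAT box is found in many promoters, TATAAA is a core promoter element, and the octamer ATTTGCAT binds POU2F1 (OCT1), known for its part in H2B transcription. HIST3H2A held 3 copies of CCAAT, at 66, 84 and 158 bases before its start, and neither of the other motifs. HIST1H2AC and HIST1H2BO each held all 3 motifs, and HIST2H4B none. The TATAAA of HIST1H2AC stood as written at 31 bases before the start. That of HIST1H2BO stood only as the reverse complement, at 214 bases before it. A match is a run of letters and does not show a bound site.

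Library totals were 17670199 counts for shRNA 1, 16216947 for shRNA 2 and 16424422 for the control. Transcripts of the mitochondrial genome took 4.58%, 2.51% and 3.88% of the counts in that order, and the fibronectin gene FN1 took 1.72%, 1.67% and 5.53%. BLACAT2 is listed as LINC00958 and checks the labels. It had 816 counts in the library labelled shRNA 1 and 1062 in the one labelled shRNA 2, against 938 in the control. Scaled, these were 0.735 of the control level (95% counting interval 0.668 to 0.808) and 0.996 (0.911 to 1.09). The target was thus not lower in the library labelled shRNA 2 beyond counting error, and edgeR's quasi-likelihood test of both libraries gave a Benjamini-Hochberg adjusted p of 0.913. Every direction below belongs to the libraries as labelled.

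Of the 76 genes, 15 had no count in any library and 31 were counted but stayed under the filter, with at most 17 counts in a library. The other 30 had a mean of at least 1 CPM, a count scaled by library size, and were tested among 15132 genes: 1 of type H1, 6 of H2A, 12 of H2B, 5 of H3 and 6 of H4. Of these 30, HIST2H3A, HIST4H4 and HIST1H2BO (16 counts) were under 1 CPM of the unscaled library total in the control. They passed the filter, which used that scale, only through the hairpin libraries. HIST1H2BO is among the genes named below as at least 2-fold higher with both hairpins. All 76 genes together took 207 CPM of the unscaled library total in the library labelled shRNA 1 (exact Clopper-Pearson 95% interval 200 to 214) and 274 (266 to 282) in the one labelled shRNA 2. In the control they took 130 (125 to 136). Without molecular identifiers, such intervals hold the counting error and no other source of spread. With scaled libraries (TMM factors), the summed counts were 1.44 times (1.37 to 1.52) and 1.83 times (1.74 to 1.93) the control's. In these bulk samples, more cells that make a message and more of it per cell cannot be told apart.

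Summed by type, the H2A genes had the highest ratios to the control, and HIST3H2A carried much of this. Their summed counts were 1057 and 1374 in the libraries labelled shRNA 1 and shRNA 2, against 445 in the control, or 2.01 times (1.80 to 2.25) and 2.72 times (2.44 to 3.03) the control level. Without HIST3H2A the H2A sums were 1.53 and 1.90 times the control's. H4 genes summed to 601 and 804, against 298 in the control (1.70 and 2.37 times). H3 genes summed to 404 and 345, against 222 (1.54 and 1.37 times). The H2B genes held the most counts in every library, 1325 and 1620 against 973 in the control, yet their ratios were only 1.15 (1.06 to 1.25) and 1.46 (1.35 to 1.59). H1 genes summed to 266 and 305, against 199 (1.13 and 1.35 times), and the interval of the first of these ratios, 0.936 to 1.36, held 1. The H3 share was 22.9 CPM in the library labelled shRNA 1 and 21.3 in that labelled shRNA 2, with counting intervals that overlap.

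**Figure D1:**
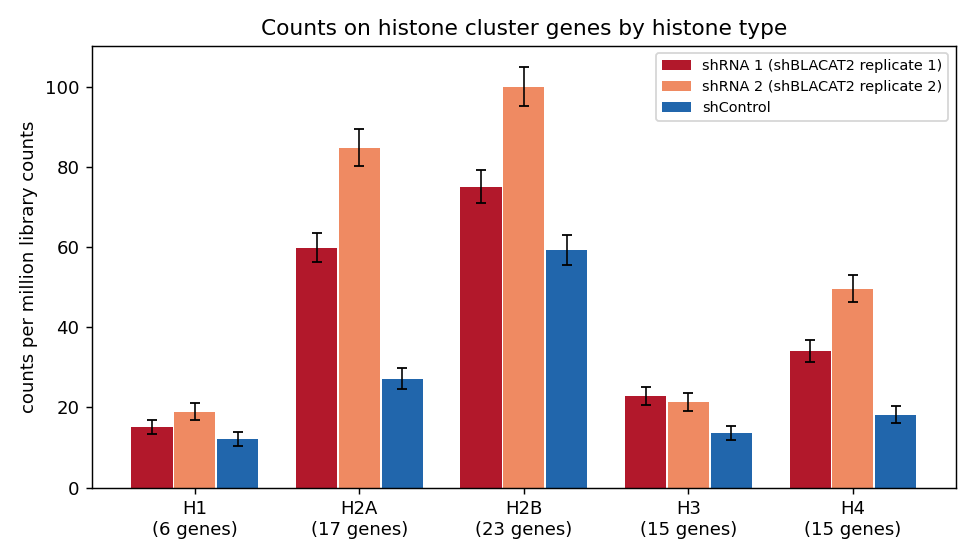
CPM of the unscaled library total on histone cluster genes, by histone type, in the libraries of shRNA 1 and shRNA 2 (1 library each) and of shControl (1 library). Error bars are exact 95% intervals of counting error; H2A stands at 59.8, 84.7 and 27.1, and H2B at 75.0, 99.9 and 59.2.

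The clusters differed too. HIST3 had 523 and 702 counts in the libraries labelled shRNA 1 and shRNA 2, against 120 in the control, or 3.68 times (3.01 to 4.53) and 5.15 times (4.23 to 6.30). HIST2 had 927 and 1246, against 533 in the control (1.47 and 2.06 times). HIST1, which holds most of the genes, had 2186 and 2467, against 1475 (1.25 and 1.47 times).

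Over the 30 tested genes, the median log2 fold over the control (log2 CPM, TMM-scaled, prior count of 2) was 0.53 in the library labelled shRNA 1 and 0.64 in the one labelled shRNA 2. Over all 15132 tested genes these medians were 0.01 and 0.04. By type, the medians with shRNA 1 and shRNA 2 were 0.61 and 1.18 for 6 H4 genes, 0.58 and 0.38 for 5 H3 genes, 0.50 and 0.54 for 12 H2B genes, and 0.36 and 0.74 for 6 H2A genes. At least 2-fold higher than the control were 7 of 30 with shRNA 1 (7.92% of all tested genes) and 10 of 30 with shRNA 2 (13%). HIST2H3A, HIST4H4 and HIST1H2BO, which passed the filter only through the hairpin libraries, are among the 10, and HIST1H2BO is among the 7. Genes that enter in this way tend to lie above the control by selection, and they are also part of the medians and the counts below. With both hairpins 5 were (5.29% of all tested genes): HIST3H2A, HIST1H2AC, HIST3H2BB, HIST1H2BO and HIST2H4B. No tested gene was at least 2-fold lower with shRNA 1 (7.38% of all tested genes), with shRNA 2 (8.76%) or with both (4.5%). Both folds were above 0 for 21 of the 30 (37.1% of all tested genes) and both below 0 for none (34.1%). Both comparisons share the single control library, so a low control count raises both folds at once.

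**Figure D2:**
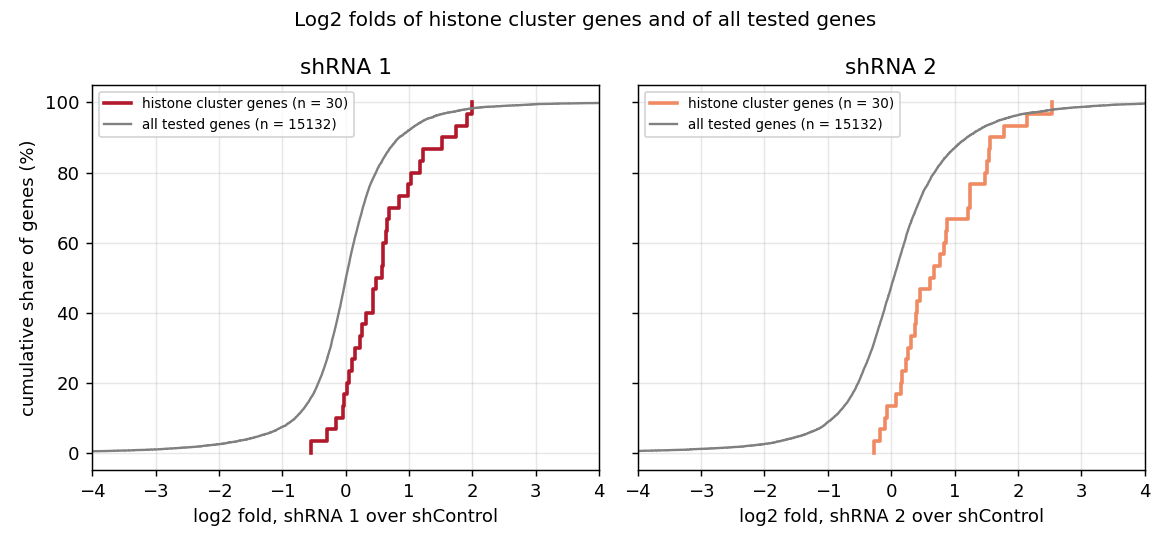
Cumulative share of genes (%, vertical axis) up to a given log2 fold over shControl (horizontal axis), for shRNA 1 (left) and shRNA 2 (right). The coloured line holds the 30 tested histone cluster genes and the grey line all 15132 tested genes; the histone line lies to the right, with medians of 0.53 and 0.64 against 0.01 and 0.04.

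In the group test, edgeR's quasi-likelihood test of both hairpin libraries against the control, 0 of the 30 genes passed a Benjamini-Hochberg adjusted p of 0.05 (0.0397% of all tested genes). The lowest adjusted p was 0.175, for HIST3H2A. At an unadjusted p below 0.05 there were 6 (10.2% of all tested genes): the 5 above and HIST2H4A. DESeq2's Wald test passed 1, HIST3H2A, at an adjusted p of 0.00634 (3.49% of all tested genes passed), and limma-voom passed 0, with 5 of the 30 at an unadjusted p below 0.05 (9.41% of all tested genes). These tests have 1 residual degree of freedom and assume that the lone control varies like the hairpin libraries.

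**Figure D3:**
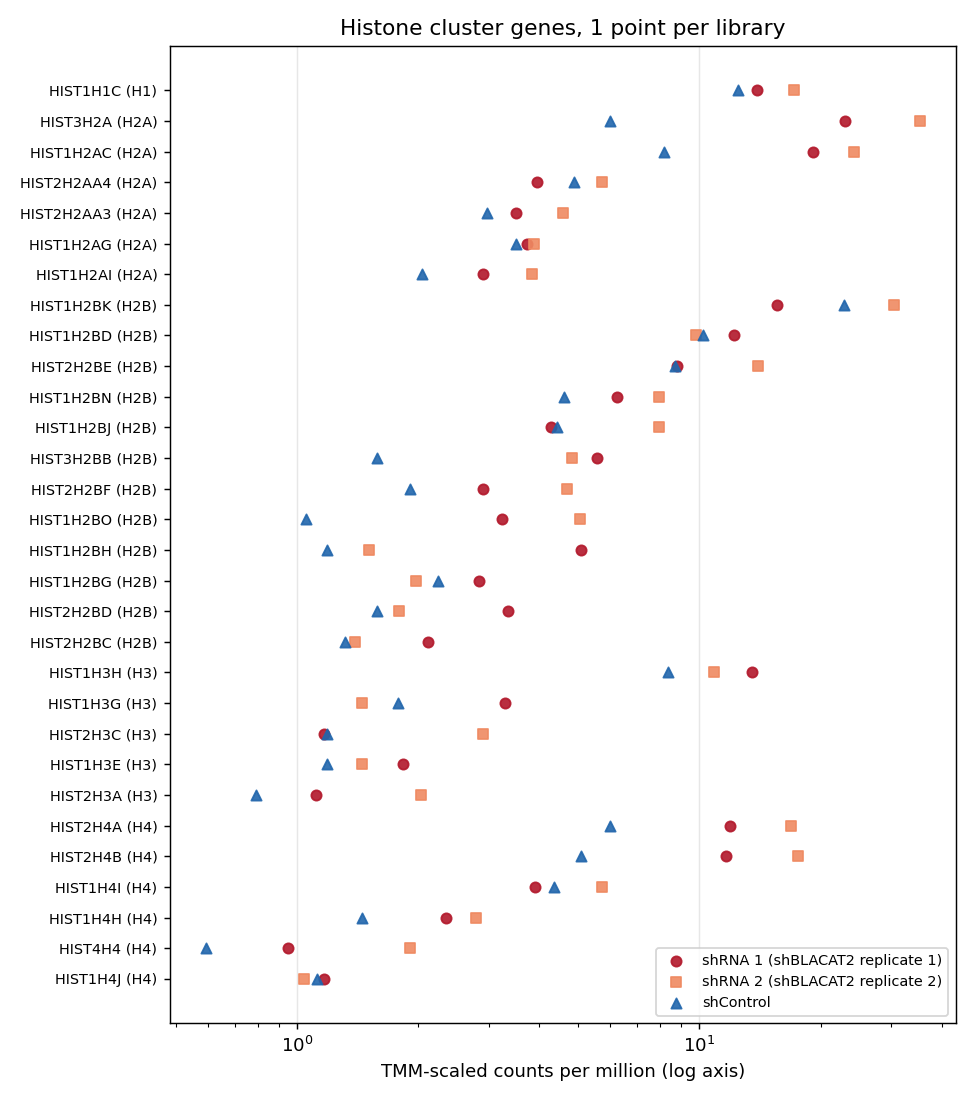
TMM-scaled CPM (log axis) of the 30 tested histone cluster genes, 1 point per library, ordered by type from H1 to H4. Circles are shRNA 1, squares shRNA 2 and triangles shControl; for HIST3H2A the points stand at 23.0, 35.3 and 5.99.

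Linker histone H1 was read from 1 gene, HIST1H1C, which codes for a common somatic H1 that binds DNA between nucleosomes. It had 249 counts in the library labelled shRNA 1 and 296 in that labelled shRNA 2, against 189 in the control (log2 folds 0.15 and 0.46). The other counted H1 genes, HIST1H1B, HIST1H1D and HIST1H1E, had at most 7 counts in any library. HIST1H1A and the testis gene HIST1H1T had none.

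Among the H2A genes, HIST3H2A and HIST1H2AC stood apart from the other 4 tested. HIST3H2A (ENSG00000181218, now H2AC25; hg38 chromosome 1, 228456979 to 228457873, minus strand) codes for a core H2A outside the main cluster. It had 414 counts in the library labelled shRNA 1 and 609 in that labelled shRNA 2, against 91 in the control. In deposited FPKM, a count per gene length and library size, this was 26.2 and 42.0, against 6.19. Both hairpin libraries lay well above the control, at 3.84 times (3.06 to 4.88) and 5.89 times (4.72 to 7.42) its scaled level. The log2 change of the group was 2.28 (edgeR adjusted p = 0.175 over all genes). Its standard error of 0.48 was worked back from the F statistic of that test. HIST3H2A alone made up 27.2% and 25.05% of the difference in summed CPM between each hairpin library and the control over all 76 genes. Its share of the histone counts was 11.3% and 13.7%, against 4.26% in the control.

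HIST1H2AC (ENSG00000180573, now H2AC6; chromosome 6, 26124145 to 26139116, plus strand) is an H2A gene known to give polyadenylated messages as well. Its counts were 344 and 417 in the libraries labelled shRNA 1 and shRNA 2, against 124 in the control. The ratios were 2.34 (1.90 to 2.90) and 2.96 (2.41 to 3.64), with a group log2 change of 1.41 (SE 0.43, edgeR adjusted p = 0.332). It accounted for a further 17.5% and 13.7% of the difference in summed CPM. The remaining tested H2A genes were closer to the control, with log2 folds of 0.48 and 0.87 for HIST1H2AI, 0.23 and 0.61 for HIST2H2AA3, 0.09 and 0.15 for HIST1H2AG, and -0.29 and 0.23 for HIST2H2AA4. HIST2H2AA4 had 71 and 99 counts, against 74 in the control. Its FPKM was 7.12 and 10.8, against 7.99, which in the control was above the 6.19 of HIST3H2A.

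Of 12 tested H2B genes, 2 were among the 5. HIST3H2BB (ENSG00000196890, now H2BC26; chromosome 1, 228458107 to 228460470, plus strand), the divergent neighbour of HIST3H2A, had 100 and 83 counts in the libraries labelled shRNA 1 and shRNA 2, against 24 in the control. These were 3.52 times (2.24 to 5.75) and 3.04 times (1.91 to 5.01) the control level, and here the library labelled shRNA 1 was the higher. HIST1H2BO (ENSG00000274641, now H2BC17; chromosome 6, 27893463 to 27893843, plus strand) had 58 and 87 counts, against 16 in the control, or 3.06 times (1.74 to 5.71) and 4.78 times (2.79 to 8.74). The group log2 changes were 1.71 (SE 0.63, edgeR adjusted p = 0.452) for HIST3H2BB and 1.96 (SE 0.72, edgeR adjusted p = 0.451) for HIST1H2BO.

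HIST1H2BK, an H2B gene known for tailed messages, was the histone cluster gene of highest FPKM: 41.6 and 85.1, against 55.6 in the control. Its counts were 280 in the library labelled shRNA 1 and 526 in that labelled shRNA 2, against 348 in the control. The hairpin libraries lay on opposite sides of the control, at 0.680 times (0.579 to 0.798) and 1.33 times (1.16 to 1.53) its level. Its share of the histone counts was 7.66% and 11.8%, against 16.3% in the control. HIST1H2BH had 91 and 26 counts, against 18, so that the library labelled shRNA 2 held 0.297 times (0.185 to 0.464) the level of the one labelled shRNA 1.

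The other tested H2B genes of the coding kind were HIST1H2BD (219 and 169 counts, against 155 in the control), HIST2H2BE (158 and 241, against 132), HIST1H2BN (112 and 137, against 70), HIST1H2BJ (77 and 137, against 67), HIST2H2BF (52 and 81, against 29) and HIST1H2BG (51 and 34, against 34). Their log2 folds ran from -0.04 for HIST1H2BJ to 0.57 for HIST2H2BF in the library labelled shRNA 1, and from -0.18 for HIST1H2BG to 1.25 for HIST2H2BF in that labelled shRNA 2. The pseudogenes HIST2H2BD (60 and 31 counts, against 24) and HIST2H2BC (38 and 24, against 20) were higher with shRNA 1 than with shRNA 2.

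Single H3 genes differed between the hairpin libraries. HIST1H3H, the tested H3 gene of highest FPKM (11.1 and 9.37, against 6.25 in the control), had 243 and 188 counts, against 127. Its ratios were 1.62 (1.299 to 2.02) and 1.302 (1.03 to 1.64). HIST1H3G had 59 counts in the library labelled shRNA 1 and 25 in that labelled shRNA 2, against 27 in the control, while HIST2H3C had 21 and 50, against 18. In the library labelled shRNA 2, HIST1H3G thus stood at 0.441 times (0.265 to 0.715) and HIST2H3C at 2.48 times (1.46 to 4.34) the level of the one labelled shRNA 1. With HIST1H2BH they were the tested histone genes at least 2-fold apart between the hairpin libraries: 1 higher with shRNA 2 (8.35% of all tested genes) and 2 lower (4.48%). HIST1H3E (33 and 25 counts, against 18) and HIST2H3A (20 and 35, against 12) were the remaining tested H3 genes.

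Of the H4 genes, the near-identical pair HIST2H4A and HIST2H4B differed most from the control. HIST2H4B (ENSG00000270276, now H4C15; chromosome 1, 149854045 to 149861210, minus strand) had 209 and 304 counts, against 77 in the control, or 2.29 times (1.76 to 3.02) and 3.47 times (2.70 to 4.52). HIST2H4A (ENSG00000270882; chromosome 1, 149832659 to 149839767, plus strand) had 214 and 292 counts, against 91. At 1.99 and 2.82 times the control level, it fell just short of the 2-fold limit with shRNA 1. The group log2 change of HIST2H4B was 1.53 (SE 0.52, edgeR adjusted p = 0.408), and the adjusted p of HIST2H4A was 0.482. HIST1H4I had 70 and 99 counts, against 66 in the control (FPKM 3.06 and 4.72, against 3.11). HIST1H4H (42 and 48 counts, against 22), HIST1H4J (21 and 18, against 17) and HIST4H4 (17 and 33, against 9) completed the type.

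**Figure D4:**
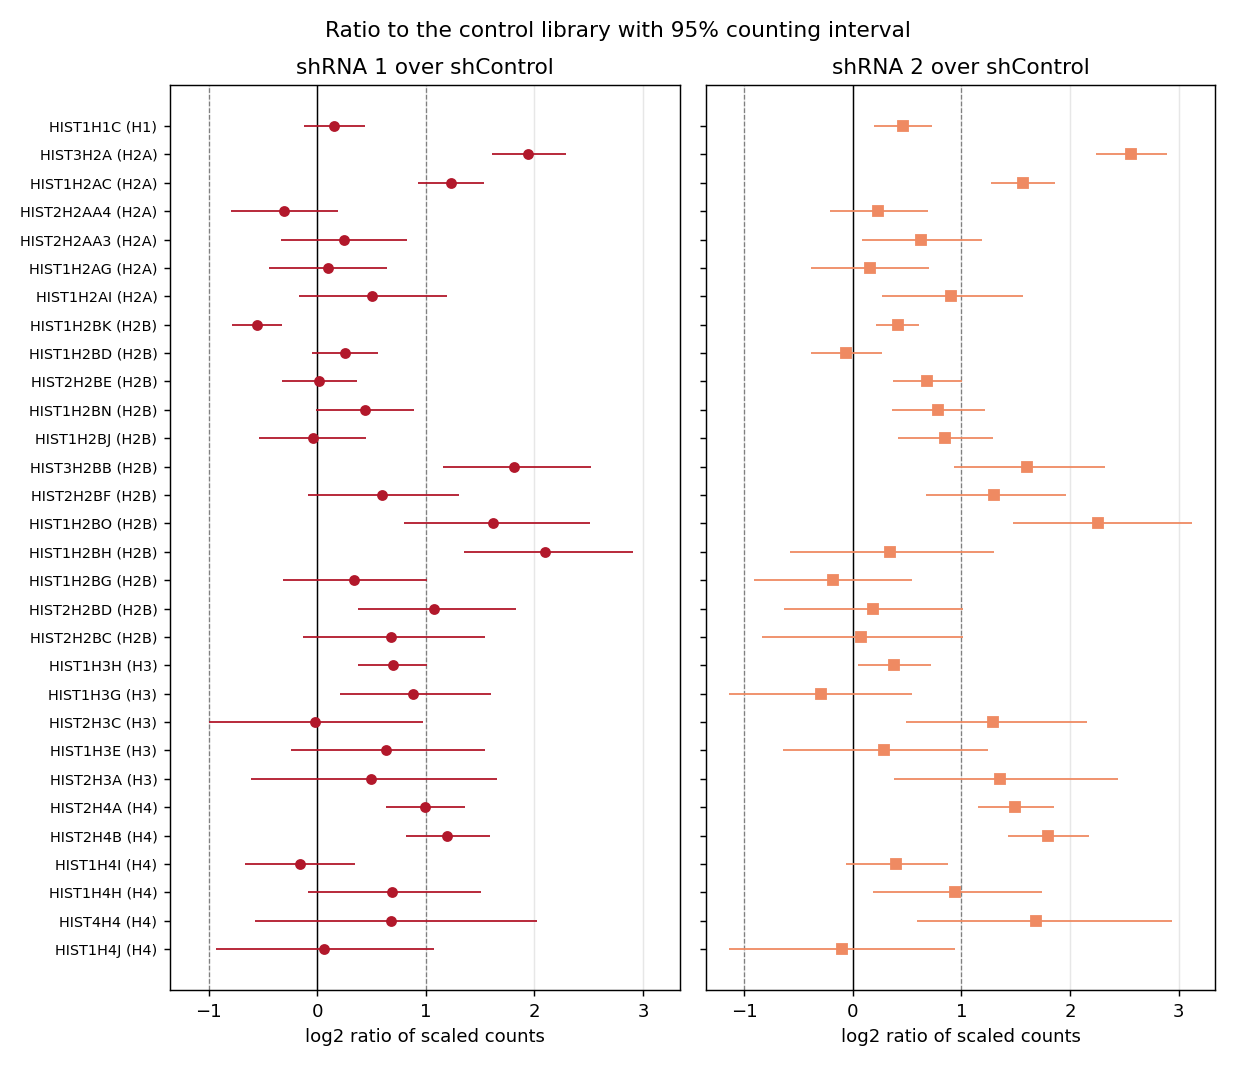
Log2 ratio of TMM-scaled counts of each hairpin library over shControl for the 30 tested histone cluster genes, for shRNA 1 (left) and shRNA 2 (right). Bars are exact conditional binomial 95% intervals of counting error, the solid line marks the control level and the dashed lines 2-fold; HIST3H2A stands at ratios of 3.84 and 5.89, and HIST1H2BK at 0.680 and 1.33.

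Without the 5 genes at least 2-fold higher with both hairpins, the remaining 71 summed to 141 and 171 CPM, against 119 in the control, or 1.18 and 1.44 times. Those 5 genes alone summed to 62.6 and 86.9 CPM, against 21.9 (2.86 and 3.97 times). Because the 5 were picked by these same folds, their ratios had to be high, and the choice lowers those of the rest. The medians of the other 25 tested genes were 0.43 and 0.41 on the log2 scale. The genes under the filter summed to 148 and 122 counts, against 109 in the control. Among them HIST1H2BC had 5 and 8 counts, against 17, and HIST2H2AC had 17 and 6, against 9.

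Shared reads limit the values of single genes, since how the authors counted reads that map more than once is not given in the sources used here. Over 29 tested genes with an annotated transcript, 6 shared over 90% of their 50-base runs with another histone cluster gene and 9 shared none. HIST3H2A shared none, HIST1H2AC 0.421%, HIST3H2BB 5.92% and HIST1H2BO 13.6%. HIST2H4A and HIST2H4B shared 97.5% and 97.2%, so their counts cannot be told apart. Summed, that H4 pair had 423 and 596 counts, against 168 in the control, or 2.13 times (1.78 to 2.56) and 3.12 times (2.62 to 3.73). HIST2H2AA3, HIST2H3A and HIST2H3C shared 100% and HIST2H2AA4 97.1%, so the values given above for each of these copies cannot be told apart either. HIST2H2AA3 and HIST2H2AA4 together had 134 and 178, against 119 (0.952 and 1.32 times), and HIST2H3A with HIST2H3C had 41 and 85, against 30 (1.15 and 2.49 times). The locus of HIST2H2BE overlaps 9 other genes, with HIST2H4B among them, and the strand setting of the counting is not given. HIST3H2A, HIST1H2AC, HIST3H2BB and HIST1H2BO overlap no other gene of the table.

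How an annotated transcript ends was compared next. In 22 genes it ran more than 100 bases past the stem-loop, in 11 it ended within 100 bases of it, and in 43 none was found, 2 of which had no transcript inside the locus. The 22 genes that run past it summed to 2306 and 2795 counts, against 1060 in the control, or 1.84 times (1.71 to 1.98) and 2.32 times (2.16 to 2.49). The 11 that end by it summed to 510 and 491, against 365 (1.18 times with either hairpin). HIST1H2BD gave 219 and 169 of these counts, against 155 in the control. It was placed there by the 1 of its 2 transcripts in which the stem-loop was found, and is listed below as known for tailed messages. The 43 with no stem-loop in the model summed to 837 and 1162, against 712 (0.993 and 1.44 times). HIST3H2A ran 390 bases past the stem-loop, HIST1H2AC 1128, HIST2H4A 1167, HIST2H4B 1314 and HIST3H2BB 1917. The models of HIST1H2BO and HIST1H2BK hold the coding part alone. These classes come from the annotation alone, and the difference between them was not tested.

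**Figure D5:**
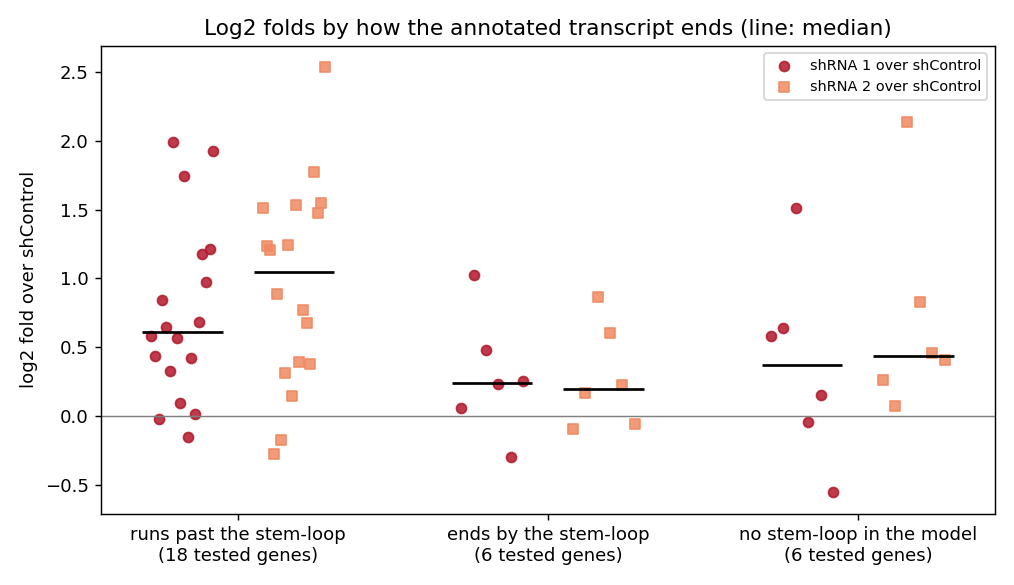
Log2 fold over shControl (vertical axis) of the tested histone cluster genes, by whether the annotated transcript runs over 100 bases past the stem-loop, ends within 100 bases of it, or holds none. Circles are shRNA 1, squares shRNA 2 and lines medians; the medians are 0.61 and 1.05 for 18 genes that run past it, 0.24 and 0.20 for 6 that end by it, and 0.37 and 0.43 for 6 with none.

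Of the 7 cluster genes listed as known for tailed messages (HIST1H1C, HIST1H2AC, HIST1H2BC, HIST1H2BD, HIST1H2BK, HIST2H2BE and HIST4H4), 6 were tested. Their median log2 folds were 0.20 and 0.57, and HIST1H2AC was the 1 at least 2-fold higher with both hairpins (5.29% of all tested genes). As a sum they stood at 70.8 and 97.9 CPM, against 64.2 in the control.

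Start-site windows were found in RefSeq for 61 of the 76 genes. ATTTGCAT stood in 11 of 14 H2A windows (78.6%), 14 of 18 H2B windows (77.8%) and 1 of 10 H3 windows, and in no H1 or H4 window; 1.77% of 35116 RefSeq windows of this length hold it. CCAAT stood in every H1, H2A, H2B and H3 window and in 3 of 13 H4 windows (34.6% of all windows), and TATAAA in 65.6% of the histone windows (11.5% of all windows). The 9 tested genes with ATTTGCAT had median log2 folds of 0.33 and 0.68, and the 17 tested genes without it 0.58 and 0.87. At least 2-fold higher with both hairpins were 2 of the first and 3 of the second (5.29% of all tested genes), so that genes of both kinds were among the 5.

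H2A and H2B genes often stand head to head, with a short shared stretch between their starts. HIST3H2A and HIST3H2BB start 234 bases apart, their windows cover much the same stretch read from either strand, and each passed the 2-fold limit upwards in both hairpin libraries. Within 100 kb of HIST3H2A, 4 other genes were tested, and their log2 folds ran from -0.46 to 1.24 in the library labelled shRNA 1 and from -0.26 to 0.77 in that labelled shRNA 2. The ubiquitin ligase gene TRIM17 was at the upper end, with 67 and 46 counts, against 23 in the control, and RNF187 at the lower end.

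Other pairs were read mostly from 1 side. HIST1H2AC had its 344, 417 and 124 counts beside 5, 8 and 17 for HIST1H2BC, 219 bases away, in the order shRNA 1, shRNA 2 and control. HIST1H2BO had 58, 87 and 16 beside none for HIST1H2AM, and HIST1H2BK had its 280, 526 and 348 beside 1, 0 and 2 for HIST1H2AH. HIST1H2AM overlaps HIST1H3J on the same strand and shares 86.3% of its 50-base runs with other histone cluster genes. HIST1H2BC overlaps HIST1H2BB on the same strand. How reads in such stretches were counted is not given, which limits the values of HIST1H2AM and HIST1H2BC. HIST1H2AI had 52, 66 and 31 beside 8 in each library for HIST1H2BL. In HIST1H2AG and HIST1H2BJ both sides were tested, with log2 folds of 0.09 and 0.15 for the H2A gene and -0.04 and 0.83 for the H2B gene. The pair HIST2H2AA3 and HIST2H2BD had 0.23 and 0.61 beside 1.02 and 0.17.

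Genes that make, carry or accompany histones were read from lists. Over 9 further lists of genes and the 7 genes above, edgeR's test passed 0 of 132 tested genes at an adjusted p of 0.05, with 11 at an unadjusted p below 0.05 (10.2% of all tested genes). DESeq2 passed 6 of the 132 (3.49% of all tested genes) and limma-voom 0. Of the 23 genes that drive transcription, end formation and decay of histone messages, all were tested, with median log2 folds of 0.08 and -0.13. CASP8AP2, which codes for FLASH, a protein needed to cut histone messages, was the 1 of 23 at least 2-fold higher with both hairpins (5.29% of all tested genes). It had 1436 and 1287 counts, against 361 in the control (log2 folds 1.74 and 1.64, edgeR adjusted p = 0.153; it passed with DESeq2). NPAT, which switches on histone transcription in S phase, had 1028 and 912 counts, against 497 (0.80 and 0.69), while SLBP stood at -0.35 and -0.29. NPAT and SLBP were chosen after their values were seen.

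Among 22 histone chaperone and acetylation genes, 21 were tested, with medians of 0.03 and -0.18. ATRX, which places the variant H3.3 with DAXX, was the 1 of 21 at least 2-fold higher with both hairpins (5.29% of all tested genes). It had 3269 and 1736 counts, against 591 in the control (log2 folds 2.22 and 1.37, edgeR adjusted p = 0.263), and passed with DESeq2. Of 12 variant histone genes outside the clusters, which are made throughout the cycle with tailed messages, 11 were tested, with medians of -0.14 and -0.24 and none past 2-fold with both. H1F0, the linker histone of resting and differentiated cells, had 23463 and 36994 counts, against 10909 in the control (0.86 and 1.58, edgeR adjusted p = 0.508). Its mean FPKM was 608, against 60.8 for HIST1H2BK. H3F3B, one of the genes for H3.3, stood at -0.40 and -0.24.

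Cell cycle genes are given beside the histone genes because histone messages follow S phase. The 25 DNA replication genes, all tested, had medians of 0.02 and -0.10, and none was past 2-fold with either hairpin. The sliding clamp gene PCNA stood at 0.14 and -0.01 and the helicase gene MCM4 at 0.01 and -0.06. As a sum, these 25 stood at 5116 and 4790 CPM, against 4889 in the control. The 20 mitosis genes had medians of 0.08 and -0.82, with 2 at least 2-fold higher in the library labelled shRNA 1 (7.92% of all tested genes), 8 at least 2-fold lower in that labelled shRNA 2 (8.76%) and none past 2-fold with both. Of these, MKI67 stood at 0.40 and -0.47 and TOP2A at 0.43 and -0.70. Among 10 inhibitor and pocket protein genes, all tested, medians were -0.05 and -0.23. CDKN2B (374 and 297 counts, against 3241 in the control) and CDKN2A (1780 and 1402, against 3542) stood at least 2-fold below the control in both hairpin libraries (4.5% of all tested genes), with edgeR adjusted p of 0.0696 and 0.215. CDKN2B and CDKN2A passed with DESeq2. Whether these differences play a part in the histone values was not tested.

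Cell identity was read from 3 marker lists. Of 11 epithelial and urothelial markers, 10 were tested, with medians of 0.97 and 0.36. UPK1B, UPK2 and CDH1 exceeded the control at least 2-fold in both hairpin libraries (5.29% of all tested genes), and UPK1B passed with DESeq2. As a sum the listed markers stood at 4428 and 2662 CPM, against 3400 in the control. Keratin KRT7 had 20236 and 13229 counts, against 19944, and the urothelial marker UPK3A 0 and 1, against 1. The 8 leukocyte markers summed to 15.98 and 48.6 CPM, against 102 in the control, mostly CSF1R. CSF1R was the 1 of 3 tested at least 2-fold lower with both hairpins (4.5% of all tested genes). It had 263 and 518 counts, against 1496, and passed with DESeq2. Of the defining markers, CD68 was at 0 in every library and PTPRC had 3 and 4 counts, against 0 in the control. The 6 endothelial markers summed to 4.06 and 8.17 CPM, against 6.59. Of these, 3 were tested, with median log2 folds of -1.51 and 1.35. TIE1, the 1 below the 2-fold limit in both hairpin libraries (4.5% of all tested genes), had 10 and 12 counts, against 55. The defining marker PECAM1 had 9 and 4 counts, against 4. Whether these markers play a part in the histone values was not tested.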

How the data were processed

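The deposited table gives whole-number read counts and FPKM values per gene, made by the authors, for 3 libraries. The build hg38 and TopHat2 2.0.9 are named per the submitters' processing notes. How reads were assigned to genes (tool, strand, reads that map more than once, annotation release) is not given in the sources used here. The deposited FPKM values are counts over gene length and library size (the implied length differed between libraries by at most 0.00583% over 13333 genes with more than 20 counts), so they were used only to compare levels between genes, and counts for all comparisons between libraries. Of 50871 lines, 4 that belong to the broken row of TGFB1 were not used.

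The 15132 genes that averaged 1 CPM or more across libraries were tested, with edgeR 4.0.16 (TMM factors 1.02 for shRNA 1, 1.06 for shRNA 2 and 0.924 for the control), two-sided, and Benjamini-Hochberg adjustment over all of them. DESeq2 1.42.0 and limma 3.58.1 (voom) were alternatives. Each standard error (SE) of a group log2 change is the size of that change over the square root of edgeR's F statistic. It rests on the same single control library as the test. The scripts were tested on simulated counts. Ratios of single genes are scaled counts with exact conditional binomial 95% intervals and no prior count; log2 folds use a prior count of 2. With 1 library per hairpin, no p-value was given per hairpin. Stem-loops were searched in GENCODE release 29 transcripts as 6 complementary stem pairs (G with T allowed) around a loop of 4 bases that starts with 2 T. The stem had to open with 2 G, close with 2 C and have T with A as its innermost pair.

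The members and lists were chosen with earlier results of these data known. All 30 tested genes are accounted for. Outside the clusters, LINC00958, FN1 (for its share of counts) and the neighbours TRIM17 and RNF187 are named, and per list up to 4 genes at least 2-fold from the control with both hairpins or, with none, the 2 of highest mean CPM; others are given as defining markers or as chosen after their values were seen.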

Additional observations from a re-analysis of the deposited data

How the results depend on the processing

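No paired analysis was possible because the control has 1 library and the groups share fewer than 2 replicate numbers. Leaving out either hairpin library leaves 1 against 1, with no residual degree of freedom and no group test. The count of genes at least 2-fold higher with both hairpins was 5 with DESeq2's size factors (760 of all 15132 tested genes) and 5 with a prior count of 0.5 (852). It was 6 with library totals (1030), which add HIST2H4A. With a single hairpin library it was 10 without shBLACAT2 replicate 1 and 7 without replicate 2. It was 3 of 11 under a filter of 5 CPM, which leaves fewer genes (536 of all 11716 genes). Under that filter 3 were higher with shRNA 1 and 4 with shRNA 2, and the medians were 0.43 and 0.80. With no filter 61 genes were tested, and 6 were higher with both (1280 of all 31171 genes), with HIST1H2AJ as the addition. HIST1H2BC was the 1 lower with both (1525 of all 31171 genes), and the medians were 0.43 and 0.34. The same 5 genes were called with DESeq2's size factors, library totals, no filter and a prior count of 0.5. Library totals gave medians of 0.65 and 0.84, while the medians of all genes were then 0.14 and 0.24. The lowest edgeR adjusted p over these settings ran from 0.149 to 0.747, and only DESeq2's Wald test passed 1 gene, HIST3H2A. Among alternatives chosen after seeing the data, the median with shRNA 2 was 0.46 with near-identical copies summed and 0.41 over 17 genes that overlap no other gene; protein-coding genes alone gave 5 of 28. Of 180 single-gene values under other scalings and priors, 6 changed sign. Depth limits the 31 genes under the filter.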
